A study of Mus musculus with 26 samples.

Results

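Heart muscle genes were followed through RNA sequencing libraries of the mouse aorta. The 35 genes encode cardiac sarcomere proteins, proteins of the calcium store, natriuretic peptides and muscle enzymes of energy metabolism. They were picked by symbol, matched through the mouse annotation to 35 of the 54532 gene identifiers in the count files, and each symbol found 1 identifier. By role, 8 belong to the thick filament, 4 to the thin filament, 11 to the Z disc and M band, 6 to the calcium store, 2 are natriuretic peptides and 4 serve energy metabolism. Of these, 4 are of atrial type (Myl4, Myl7, Nppa and Sln) and 3 of ventricular type (Myh7, Myl2 and Myl3). The other 28 are shared by the chambers.

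The study compared aortas of male mice that carry 1 mutant copy of fibrillin-1 (Fbn1 C1041G/+, a model of Marfan syndrome) with those of wild-type littermates. Untreated mice gave 4 groups of 4 libraries, the ascending and the descending aorta of wild-type mice and of mutant mice. In a second experiment the C1041G/+ mice received an antisense oligonucleotide (ASO), and their ascending aorta gave 5 libraries for AGT-ASO, directed at angiotensinogen, and 5 for the control ASO. All mice of the second experiment carry the mutant allele, so it has no wild-type group. The labels state neither age nor dose nor duration of treatment. The labels number the libraries but do not say that each came from its own animal, so p-values measure the spread between these libraries.

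A heart muscle cell contracts when myosin of the thick filament pulls on actin of the thin filament, under control of the troponins. Calcium leaves the store through the ryanodine receptor and is pumped back by an ATPase that phospholamban and sarcolipin restrain. Atrial and ventricular cells use different myosin light chains, and atrial cells secrete natriuretic peptides. The ascending aorta leaves the left ventricle and lies next to the atria and the pulmonary trunk, while the descending aorta lies away from the heart. The main contractile cell of the aortic wall is the smooth muscle cell, which uses its own actin, myosin and calponin.

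The libraries held 17171652 to 28554356 counts, and 19903 to 22436 genes had at least 1 count. The smooth muscle marker Acta2 had group means of 11460 to 13520 CPM (counts scaled to a common library size) and Myh11 of 5489 to 6466 CPM, so the defining markers of the aortic wall were present in all 6 groups. The heart muscle genes together took 0.110% to 0.346% of the counts in the 18 ascending libraries and 0.0955% to 0.123% in the 8 descending ones. Mutant ascending 2 stood apart in thymocyte markers, with a summed level of 97.4 CPM where the other libraries lay between 0.00 and 37.0 CPM.

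To show what lies in front of genes that differed between the regions, the 250 bases before the start of an atrial light chain gene (Myl7), a ventricular one (Myl3) and the myosin gene used below as the yardstick (Myh6) are given 5′ to 3′ on the gene's own strand, from RefSeq on build GRCm38.p6. Capitals mark a CArG box (bound by serum response factor) and the MCAT element CATTCC (bound by TEAD factors), searched on both strands, so that a capital GGAATG is CATTCC on the other strand.
Myl7, chr11:5898783-5899032, minus strand: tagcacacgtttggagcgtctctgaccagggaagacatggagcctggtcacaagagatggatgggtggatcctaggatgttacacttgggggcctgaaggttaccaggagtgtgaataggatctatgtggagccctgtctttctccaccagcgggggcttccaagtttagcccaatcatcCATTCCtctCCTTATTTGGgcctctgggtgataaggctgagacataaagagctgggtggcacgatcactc
Myl3, chr9:110763428-110763677, plus strand: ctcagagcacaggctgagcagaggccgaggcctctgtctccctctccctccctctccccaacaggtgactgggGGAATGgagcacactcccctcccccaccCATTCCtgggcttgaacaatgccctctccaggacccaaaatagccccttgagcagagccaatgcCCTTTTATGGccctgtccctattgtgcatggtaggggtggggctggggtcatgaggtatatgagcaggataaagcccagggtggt
Myh6, chr14:54966608-54966857, minus strand: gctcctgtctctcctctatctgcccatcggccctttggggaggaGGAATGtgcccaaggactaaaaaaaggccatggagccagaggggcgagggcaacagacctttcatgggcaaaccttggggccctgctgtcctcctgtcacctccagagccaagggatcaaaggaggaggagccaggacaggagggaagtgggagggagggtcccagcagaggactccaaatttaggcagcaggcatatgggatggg

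The light chain promoters each held 1 CArG box, starting 61 bases before the Myl7 start and 85 bases before the Myl3 start, and the Myh6 window held none. Myl7 and Myh6 had 1 MCAT element each and Myl3 had 2. RefSeq windows were matched for 30 of the 35 genes and were not matched for Trdn, Myom2, Tcap, Sln and Xirp1. A CArG box lay in the windows of 5 of the 30 genes (Actc1, Ldb3, Myl3, Myl7 and Myom1), which is 16.2% of their 37 windows, and in 1.47% of all 32851 windows of the same length. MCAT elements were in those of 7 genes (Myh6, Myh7, Myl3, Myl7, Nppb, Tnnc1 and Tnnt2), 18.9% of their windows against 12.6% of all. A MEF2 site was in those of 5 genes (Casq2, Mybpc3, Myoz2, Ttn and Xirp2), 13.5% against 2.92%. These matches describe letters in the windows.

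In the ascending aorta of wild-type mice, level was compared between genes only as CPM per kilobase of the messenger RNA. The genes of highest level were Tcap, which caps titin at the Z disc, at 207.9 ± 49.7 CPM per kilobase (SD, n = 4), and Tnnt2, the troponin that binds tropomyosin, at 191 ± 73.1. Myom1, which crosslinks myosin at the M band, stood at 69.96 ± 12.9, and the atrial light chains Myl7 at 50.7 ± 57.7 and Myl4 at 45.8 ± 64.0. Lowest were the slow myosins Myh7b, at 0.109 ± 0.0273, and Myh7, at 0.519 ± 0.454, the giant spring Ttn at 0.268 ± 0.213, the actin-binding Xirp2 at 0.453 ± 0.372 and the natriuretic peptide Nppb at 0.762 ± 0.764. Neighbours in this order lay within their spread: Tcap and Tnnt2 did, and so did Myom1, Myl7 and Myl4. Dividing by all merged exons in place of 1 transcript kept Tcap in place 1 but put Tnnt2 in place 6 and Myl4 in place 15.

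**Figure D1:**
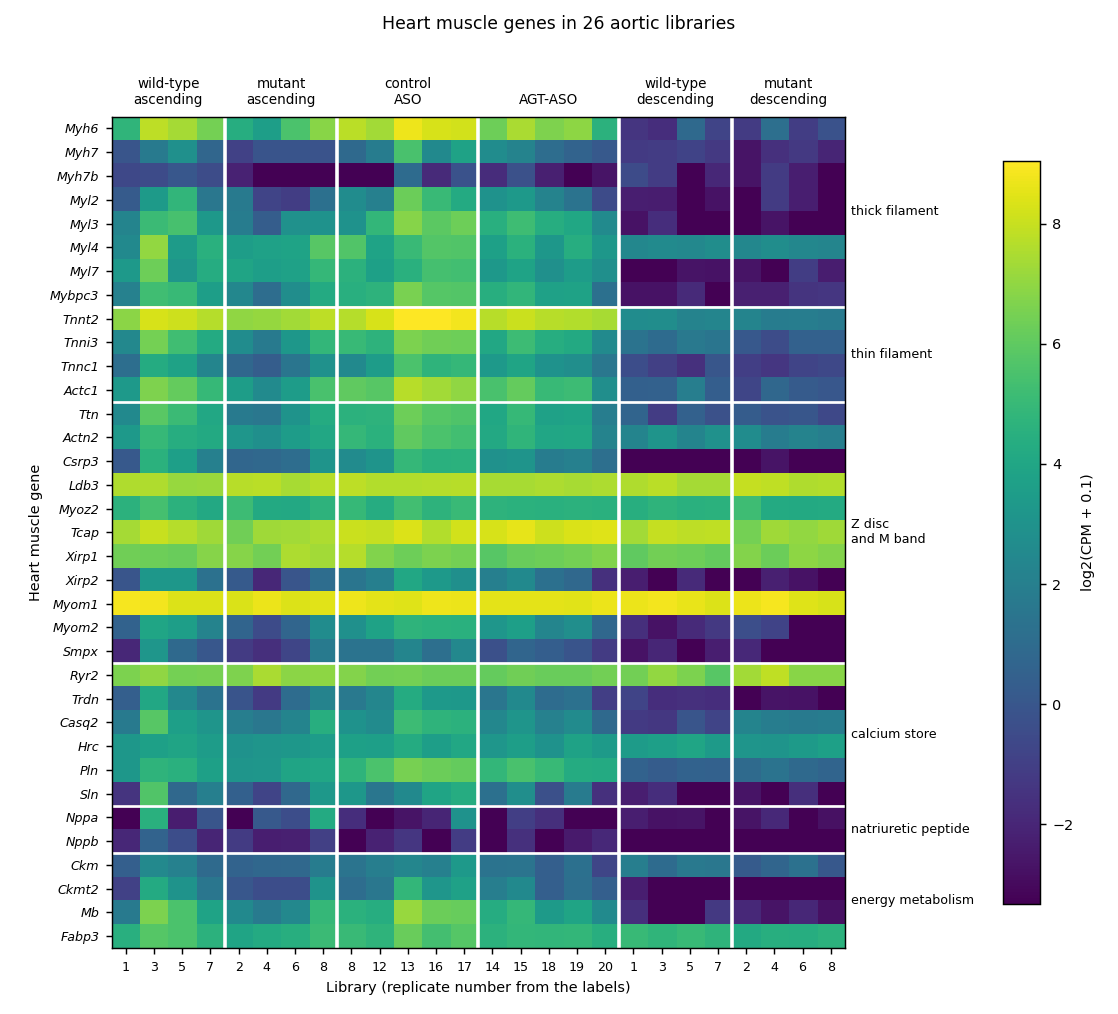
Level of each of the 35 heart muscle genes (rows, by role) in each of the 26 libraries (columns, by group and label number), as log2(CPM + 0.1), with brighter colours for higher levels. Rows such as Myom1, Ldb3 and Ryr2 stay bright across all columns, while Myh6, Myl7 and Csrp3 go dark in the descending aorta.

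The genes were split at a mean of 1 CPM in the wild-type descending aorta, a line that takes no account of transcript length. Of the 35, 15 had a mean of at least 1 CPM there, and 20 lay below it, from Ttn at 0.976 CPM just under the line down to Csrp3 and Nppb at 0 counts. Pln, at 1.30 CPM, was just above it. These CPM are not divided by length, so they give no order of level between genes. The largest values among the 15 were those of Myom1 (399 CPM), Tcap (218 CPM), Ldb3 (184 CPM), Ryr2 (92.4 CPM), Xirp1 (75.0 CPM), Fabp3 (29.4 CPM) and Myoz2 (23.7 CPM). Hrc (12.3 CPM), Actn2 (6.36 CPM), Myl4 (5.78 CPM), Tnnt2 (5.55 CPM), Ckm (2.93 CPM), Tnni3 (2.55 CPM) and Actc1 (1.91 CPM) completed them. The 20 low genes together made up 0.000299% to 0.000888% of the counts in the descending libraries, where the choice of genes makes it low, and 0.00430% to 0.123% in the ascending ones. In these bulk samples, fewer cells of a type and less RNA per cell cannot be told apart.

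Ascending was then compared with descending aorta within each genotype. In wild-type mice 23 of 34 tested heart muscle genes were higher in the ascending aorta and 0 were lower (edgeR quasi-likelihood F test, Benjamini-Hochberg adjusted p under 0.05), against 7.82% of all 15645 tested genes called higher. Nppb was not tested for its low counts. In mutant mice 15 of 34 were higher and 0 lower, against 6.41% of all genes. Over the 34 genes the median log2 fold change came to 4.66 for wild-type mice and to 3.26 for mutants, beside -0.0089 and -0.0061 over all tested genes. These medians were the same with genes at 0 in the descending aorta set to their lower bound. In 22 of the 34 genes every wild-type ascending library lay above every descending one, and in 21 of 34 in mutant mice, which 9.19% and 8.55% of all tested genes showed. Genes that passed in the thick filament group numbered 7 of 8 in wild-type and 4 of 8 in mutant mice, and in the thin filament group 4 of 4 in both. For the Z disc and M band they were 6 and 4 of 11, for the calcium store 4 and 2 of 6, and for energy metabolism 2 and 1 of 4. Of the atrial genes 3 of 4 passed in wild-type and 1 of 4 in mutant mice, and of the ventricular ones 3 of 3 and 1 of 3. With the library number as a replicate block, 3 of 4 atrial and 3 of 3 ventricular genes passed in each genotype, and 2 of 4 of energy metabolism. Under the block Nppa passed in both genotypes, Myh7, Myl2, Sln, Smpx and Ckmt2 passed in mutant mice as well, and Ttn no longer did. The mutant count fell to 9 without mutant descending 6 and to 9 without mutant descending 8.

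Myh6, the main myosin heavy chain of the adult mouse heart, had 503, 5049, 3222 and 1824 counts in wild-type ascending 1, 3, 5 and 7, and 5, 4, 30 and 9 in the descending libraries of the same numbers. The ascending libraries were all above the descending ones, by a log2 fold change of 7.58 ± 1.06 (SE, edgeR adjusted p = 0.000244). Its change in mutant mice was 5.71 ± 1.00 (edgeR adjusted p = 0.0019). Myl7, the atrial regulatory light chain, was 10.4, 80.4, 8.92 and 19.8 CPM in the wild-type ascending libraries and had 2 counts in all in the descending ones. That is a 1180-fold ratio with an exact 95% interval of 326 to 9750, which covers counting error only.

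Csrp3, a Z disc protein that senses stretch, had 897 counts over the wild-type ascending libraries and 0 over the descending ones, at least 271-fold higher when the descending group is set to a floor of 3 counts. Mybpc3, the cardiac myosin-binding protein, and Mb, the oxygen store of muscle, were 310-fold and 302-fold higher on the CPM scale. The regional difference of Tnnt2 had a small error in both genotypes. It stood at 118, 319, 275 and 206 CPM in the wild-type ascending libraries and at 5.55 ± 1.06 CPM (SD, n = 4) in the descending ones, a log2 fold change of 5.37 ± 0.31 (edgeR adjusted p = 1.5e-08), and its change in mutant mice was 5.41 ± 0.32 (edgeR adjusted p = 2.12e-08). Pln, which restrains the calcium pump, stood at 9.34, 26.4, 22.8 and 12.7 CPM in wild-type ascending 1, 3, 5 and 7 and at 1.12 to 1.40 CPM in the descending libraries, so the regions did not overlap. It was 13.7-fold higher in wild-type and 6.38-fold higher in mutant ascending aorta, and it passed in both (edgeR adjusted p = 6.43e-07 and 2.11e-05). Exons of Pln share 1785 bases with genes on the other strand, among them Cep85l, and whether reads were counted by strand is not stated in the labels.

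Another set of members was as high in the descending as in the ascending aorta, or nearly so. Myom1 had 395 ± 72.7 CPM in wild-type ascending and 399 CPM in descending aorta, a log2 fold change of -0.01 ± 0.14 (edgeR adjusted p = 0.981). Ldb3, a Z disc scaffold, Tcap, the calcium release channel Ryr2, the calcium-binding Hrc, the actin-binding Xirp1, the Z disc protein Myoz2, the creatine kinase Ckm and the fatty acid carrier Fabp3 also did not pass in either genotype. Their log2 fold changes in wild-type mice ran from -0.15 (Ldb3) to 0.34 (Fabp3). Myl4 and Actn2 were in between: Actn2, which crosslinks actin at the Z disc, was 3.17-fold higher (edgeR adjusted p = 0.00291), and Myl4, the atrial essential light chain, was 7.46-fold higher with an edgeR adjusted p = 0.0493. Wild-type ascending 1 lay within the descending range for Myl4. Its log2 fold change of 2.90 was 1.19 without wild-type ascending 3 (edgeR adjusted p = 0.223) and 2.02 with the replicate block (edgeR adjusted p = 0.183), and the call was lost in 9 of 14 alternatives.

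**Figure D2:**
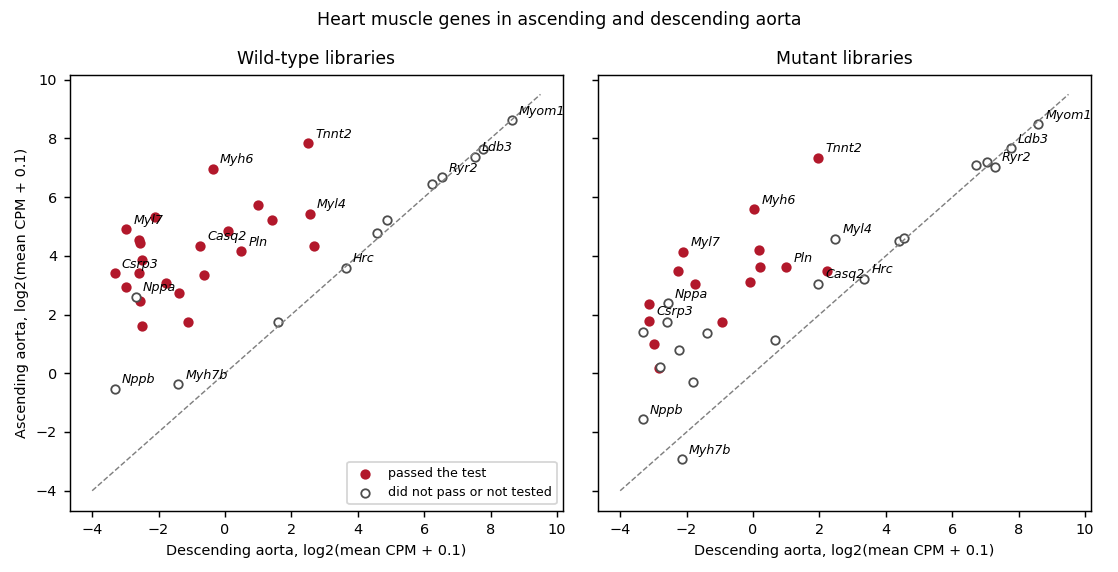
Mean level of the 35 heart muscle genes in descending (x) and ascending (y) aorta, as log2(mean CPM + 0.1), in wild-type (left) and mutant (right) libraries, with a dashed line of equal level. Filled points passed the test: 23 in wild-type and 15 in mutant libraries. Myom1, Ldb3 and Ryr2 lie on the line, and Myl7, Csrp3 and Tnnt2 far above it.

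Other lists moved with region too. Of 8 heart transcription factors, 6 were tested, 4 were higher in the ascending aorta in each genotype and 1, Hey2, was lower in each. Gata4, a factor of heart and epicardium, stood at 48.0 CPM in wild-type ascending and 0.175 CPM in descending aorta, and Tbx20, a factor of heart and valves, at 141 and 9.22 CPM. Nkx2-5, a defining factor of heart muscle, stood at 2.15 CPM against 0 counts. All 7 mesothelial markers, genes of the lining that covers heart and great vessels, were higher in both genotypes, with a summed level of 274 to 538 CPM in untreated ascending and 5.19 to 21.8 CPM in descending libraries. Their part in the result was not tested. Smooth muscle markers overlapped between the regions, at 19487 to 30377 CPM in untreated ascending and 23503 to 29474 CPM in descending libraries. Skeletal muscle genes went the other way in wild-type mice, with a summed level of 63.1 to 85.7 CPM in ascending and 136 to 209.6 CPM in descending libraries, and 3 of 11 tested lower in the ascending aorta and 1 higher. Casq1, the skeletal calsequestrin, stood at 52.0 and 139.8 CPM, while the fast myosins Myh1, Myh2 and Myh4 were below 1 CPM on average in all groups.

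The content of heart muscle genes varied widely between libraries of 1 group. Myh6 stood at 26.8, 223, 164 and 87.4 CPM in wild-type ascending 1, 3, 5 and 7, an 8.31-fold range. In mutant ascending 2, 4, 6 and 8 it was 20.5, 12.2, 46.8 and 114 CPM, a 9.27-fold range. The AGT-ASO libraries 14, 15, 18, 19 and 20 had 78.9, 179, 101, 122 and 24.2 CPM, a 7.37-fold range, and the control ASO libraries 8, 12, 13, 16 and 17 had 214, 162, 429, 314 and 291 CPM, a 2.64-fold range. The untreated groups overlapped each other, and so did the antisense groups, because AGT-ASO 15 was above control ASO 12. Tnnt2 varied by 2.70-fold, 1.75-fold, 1.54-fold and 2.56-fold in the same 4 groups, less than Myh6 in the first 3 and about as much with control ASO. In mutant ascending 4 it kept 2521 counts where Myh6 had 225, and in AGT-ASO 20 it kept 3059 where Myh6 had 431. Ldb3 and Myom1 varied by at most 1.36-fold and 1.41-fold within an ascending group.

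The 4 atrial genes were all highest, within their group, in wild-type ascending 3. So were several shared genes, among them Myh6 (223 CPM), Tnnt2 (319 CPM), Tnni3 (87.4 CPM) and Mb (96.9 CPM), so this was not particular to the atrial genes. Sln, the atrial brake on the calcium pump, was at 51.8 CPM there and at 0.267, 1.68 and 3.98 CPM in wild-type ascending 1, 5 and 7. Myl4 was at 133 CPM against 5.76, 11.1 and 22.7 CPM, and Nppa, the atrial natriuretic peptide, at 23.0 CPM against 0.00, 0.102 and 0.862 CPM. The ventricular light chains were not highest there: Myl2 was at 1.07, 10.4, 28.04 and 2.92 CPM and Myl3 at 4.64, 34.4, 44.1 and 9.49 CPM in wild-type ascending 1, 3, 5 and 7, so wild-type ascending 5 led for both.

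Among the mutant ascending libraries, number 8 was the high one for the atrial genes, with Myl4 at 56.2 CPM against 11.8 to 14.4, Nppa at 18.9 CPM against 0.00 to 0.979, and Sln at 9.51 CPM against 0.490 to 1.69. The shared genes Myh6 (114 CPM), Tnnt2 (225 CPM), Tnni3 (29.5 CPM) and Mb (29.8 CPM) were highest in mutant ascending 8 as well. Of the ventricular light chains, Myl3 was highest there too, at 7.91 CPM beside 7.48 CPM in mutant ascending 6, and Myl2 was not, at 2.25 CPM beside 3.33 CPM in mutant ascending 2. Control ASO 13 had the highest ventricular levels of all libraries, with Myl2 at 76.3 CPM, Myl3 at 110 CPM and Myh7, the slow myosin of the ventricle, at 45.7 CPM where the other control ASO libraries had 1.74 to 13.96 CPM. Its Myl7 level of 22.9 CPM was below that of control ASO 16, at 42.3 CPM. The AGT-ASO libraries had Myl2 at 0.618 to 9.87 CPM and Myl7 at 7.03 to 14.6 CPM.

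Nppa was high in fewer libraries than the other atrial genes. It was above 2 CPM in wild-type ascending 3, mutant ascending 8 and control ASO 17 alone, at 23.0, 18.9 and 7.91 CPM. Control ASO 16 had 416 counts of Sln and 1492 of Myl4 but 4 of Nppa, and control ASO 8 had 220, 1259 and 5. An antisense gene on the other strand, Gm13054, shares 532 exonic bases with Nppa. Nppb, the second natriuretic peptide, reached 32 counts in wild-type ascending 3 and 13 in wild-type ascending 5, and had at most 8 in any other library.

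The balance of atrial to ventricular light chains was read from log2 ratios of counts within a library, which no scaling between libraries can change. The Myl7 to Myl2 ratio was 3.25, 2.95, -1.65 and 2.75 in wild-type ascending 1, 3, 5 and 7, and 2.16, 4.57, 5.02 and 3.70 in mutant ascending 2, 4, 6 and 8. Wild-type ascending 5 therefore had fewer counts of Myl7 than of Myl2, and the other 7 untreated ascending libraries had more. This sign compares the counts of Myl7 and Myl2 and does not assign a library to a chamber. Mutant minus wild type differed by 2.04 (exact two-sided permutation test, n = 4 and 4, p = 0.171, adjusted p = 0.786), with overlapping groups. For Myl4 to Myl3 the means were 2.25 ± 1.15 in mutant and 0.384 ± 1.72 (SD, n = 4 each) in wild-type libraries, a difference of 1.87 (exact permutation p = 0.143, adjusted p = 0.786). The smallest p that 4 against 4 allows is 0.0286. The Myl4 to Myl3 ratio has a limit, since Myl4 had 93 to 126 counts in every descending library, where Myl3 had at most 4. In the descending aorta the mean of this ratio was 6.55 in wild-type and 7.26 in mutant libraries. How far Myl4 counts of this kind raise the ratio in ascending libraries was not tested.

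In the antisense experiment the Myl7 to Myl2 ratio was 0.286, 0.559, 0.681, 2.16 and 3.45 in AGT-ASO 14, 15, 18, 19 and 20, and 1.95, 1.64, -1.73, 0.323 and 1.05 in control ASO 8, 12, 13, 16 and 17. The groups overlapped and differed by 0.781 (exact permutation p = 0.421, adjusted p = 0.841). Control ASO 13 was the 1 library with a negative Myl7 to Myl2 ratio. The Myl4 to Myl3 ratio was -0.75, -0.59, -1.16, 0.31 and 0.636 in the AGT-ASO libraries and 2.73, -1.02, -1.73, -0.206 and -0.60 in the control ones, negative in 7 of 10, and differed by -0.146 (exact permutation p = 0.897, adjusted p = 0.992). None of the 10 tests of 5 ratios in 2 comparisons passed after adjustment over the 10; the smallest adjusted p was 0.786. The Myh7 to Myh6 ratio, slow over fast myosin, differed by -0.25 (adjusted p = 0.992) between the genotypes and by 0.0663 (adjusted p = 0.992) between the antisense groups in these exact permutation tests. In the same order, the exact permutation tests gave 2.0 (adjusted p = 0.786) and -0.0377 (adjusted p = 0.992) for Nppa to Myh6. For Sln to Myh6 these exact tests gave 0.692 (adjusted p = 0.905) and -0.757 (adjusted p = 0.786).

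**Figure D3:**
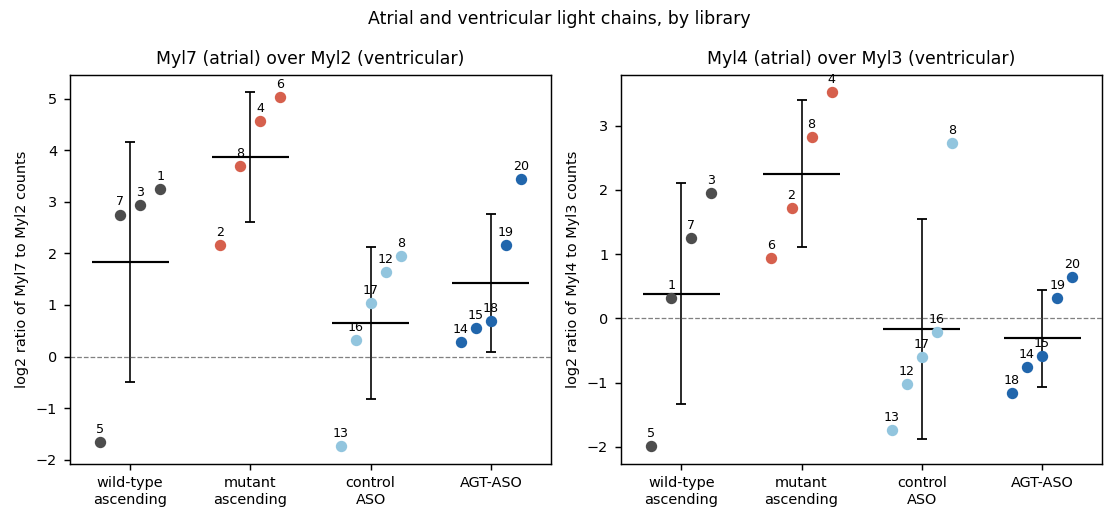
Log2 ratio of atrial to ventricular light chain counts in each ascending library (points, labelled by library number), for Myl7 over Myl2 (left) and Myl4 over Myl3 (right), with group mean (line) and SD (bar). Wild-type ascending 5 and control ASO 13 have the lowest ratios of their groups in both panels. Myl4 was also counted in every descending library, which limits the right panel as a measure of chamber type.

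How far the members follow Myh6 was measured by correlation of log2(CPM + 0.1) across libraries, apart for the 8 untreated and the 10 antisense ascending libraries, in 68 relations. In the untreated libraries 24 of 34 genes had a Pearson r over 0.7 and the median r was 0.908. In the antisense libraries 24 of 34 did, with a median of 0.822. With the group means subtracted the counts were 23 and 17 of 34. The relations share libraries, depth and scaling, so they are not independent.

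Mybpc3 followed Myh6 with r = 0.982 (exact permutation p = 0.000124, adjusted p = 0.000703) and rho = 0.976 (exact permutation p = 0.000397, adjusted p = 0.00159) in the untreated libraries, and r = 0.958 without the 2 libraries farthest from the median. Tnni3, the inhibitory troponin, had r = 0.978 there (exact permutation p = 0.000198, adjusted p = 0.000964; rho = 0.976, p = 0.000397, adjusted p = 0.00159) and r = 0.978 without those 2. Its r in the antisense libraries was 0.966 (permutation p = 1e-05, the smallest that 100000 resamples can give, adjusted p = 0.000227; rho = 0.976, p = 3e-05, adjusted p = 0.000567), and 0.935 without the farthest 2.

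Chamber-typed genes differed in how closely they followed. In the untreated libraries Myl3 had r = 0.935 (exact permutation p = 0.000298, adjusted p = 0.00119; rho = 0.952, p = 0.00114, adjusted p = 0.00353), and 0.853 without the 2 farthest libraries. There Sln had r = 0.798 (exact permutation p = 0.0144, adjusted p = 0.0223; rho = 0.786, p = 0.0279, adjusted p = 0.0413), and 0.649 without them. Myl7 had r = 0.563 (exact permutation p = 0.14, adjusted p = 0.174; rho = 0.381, p = 0.36, adjusted p = 0.408) and 0.19 without the 2 farthest libraries. Myl2 had r = 0.726 (exact permutation p = 0.0428, adjusted p = 0.0582; rho = 0.619, p = 0.115, adjusted p = 0.15), and 0.562 without them. In the antisense libraries Myl7 had r = 0.83 (permutation p = 0.00137, adjusted p = 0.00321; rho = 0.915, p = 0.00037, adjusted p = 0.00159), and 0.941 without the 2 farthest. With the group means subtracted, the r of Myl7 was alike in the experiments, at 0.585 in the untreated and 0.589 in the antisense libraries. Of the 15 genes at 1 CPM or more in the wild-type descending aorta, 8 had r over 0.7 in the untreated libraries, with a median of 0.877. Hrc (r = 0.918), Fabp3 (0.909) and Ckm (0.877), which did not pass by region, were among the 8. Among the rest, Myom1 had r = -0.0954 (exact permutation p = 0.816, adjusted p = 0.841, and rho = 0.0238, p = 0.977, adjusted p = 0.977) in the untreated libraries. Ldb3 had r = -0.535 there (exact permutation p = 0.179, adjusted p = 0.214, and rho = -0.571, p = 0.151, adjusted p = 0.194). Without the 2 farthest libraries these were -0.32 and -0.591.

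Over the 18 ascending libraries with group means subtracted, the 10 non-member genes most like Myh6 by Pearson r ran from 0.899 to 0.956, given as a description. Cox6a2, the striated muscle form of a cytochrome oxidase subunit, came first at 0.956. Lmod2, which nucleates thin filaments, was at 0.946, and so was Chrm2, the muscarinic receptor of the heart. Adprhl1 (0.928), Mylk3, the cardiac myosin light chain kinase (0.927), Trim55 (0.925), Ppp1r3a (0.92), Alpk2 (0.901) and Eef1a2 (0.899) followed. Chrm2 had a mean of 5.16 CPM in ascending aorta of wild-type mice, 2.82 CPM in that of mutants, and 0 CPM in the wild-type descending aorta. Of 14343 genes at 1 CPM or more in an ascending group, 127, or 0.885%, had r of at least 0.7 in this measure. The heart muscle genes, with Myh6 itself, are counted among them. Among genes called lower by genotype in the ascending aorta the share was 7 of 155, or 4.52%, and among those called higher 0 of 184, beside 0.86% of the genes tested there. Among genes called between the antisense groups it was 0 of 8 lower and 0 of 2 higher ones.

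The genotype comparison in the untreated ascending aorta called 2 of 34 heart muscle genes lower in the mutant and 0 higher (edgeR quasi-likelihood F test), against 1.0% of all 15645 genes called lower. The fold changes of 31 of the 34 were negative, with a median of -1.39 beside -0.0097 over all tested genes, and 18 had an unadjusted p under 0.05, as did 16.2% of all genes. All mutant libraries lay below all wild-type ones in the same 2 genes, Myh7 and Myh7b, a pattern seen in 4.58% of all tested genes. The members are correlated across libraries, so these signs are not independent of each other. The count was 0 without wild-type ascending 3 or 5 or mutant ascending 6 or 8, and 1 without wild-type ascending 7 or mutant ascending 2 or 4.

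Myh7 stood at 0.854, 3.31, 7.19 and 1.58 CPM in wild-type ascending 1, 3, 5 and 7 and at 0.427, 0.816, 0.819 and 0.801 CPM in mutant ascending 2, 4, 6 and 8. The groups did not overlap, though wild-type ascending 1 exceeded the highest mutant library by little. The log2 fold change was -2.18 ± 0.51 (SE, edgeR adjusted p = 0.0332). With the library number as a random block the adjusted p was 0.122, and without the block in the same limma voom fit 0.121. The call was lost in 9 of 15 alternatives, and without wild-type ascending 5 it was -1.44 with an edgeR adjusted p = 0.138. Antisense genes, among them Mhrt, share 1149 exonic bases with Myh7.

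Myh7b, a slow myosin of heart and muscle, had 10, 14, 18 and 13 counts in the wild-type ascending libraries and 3, 0, 0 and 0 in the mutant ones. On the CPM scale the wild-type level was 17.9-fold higher, with an exact 95% interval of 5.82 to 89.6 for counting error only. Its edgeR adjusted p was 0.0378, and 0.0171 with the number as a random block in limma voom. The call was lost in 7 of 15 alternatives, all of them fits without 1 library, with an adjusted p of up to 0.101. Wild-type descending libraries had 11, 7, 0 and 3 counts of it.

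Ventricular and atrial genes went the same way, and none passed but Myh7. The ventricular light chains had log2 fold changes of -2.68 ± 0.87 (Myl2, edgeR adjusted p = 0.131) and -2.21 ± 0.64 (Myl3, edgeR adjusted p = 0.1), and the atrial ones -0.78 ± 0.58 (Myl7, 0.553) and -0.86 ± 0.79 (Myl4, 0.64). Myh6 was at -1.38 ± 0.69 (edgeR adjusted p = 0.353), Tnnt2 at -0.50 ± 0.24 (edgeR adjusted p = 0.338), Sln at -2.16 ± 1.19 (edgeR adjusted p = 0.4) and Nppa at -0.24 ± 1.45 (edgeR adjusted p = 0.956). The 3 positive values were those of Xirp1, at 0.65 ± 0.21 (edgeR adjusted p = 0.128), Ryr2 and Ldb3, all among the genes that the descending aorta also holds. Fold changes by role had medians of -1.79 for the thick filament, -1.57 for the thin filament, -1.15 for energy metabolism, -0.94 for the calcium store and -0.86 for the Z disc and M band.

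Some marker sums for other cells differed between the genotypes in these libraries, though few of their genes passed the test. The summed level of the 18 skeletal muscle genes ran from 63.1 to 85.7 CPM for wild type and from 34.6 to 41.96 CPM for the mutant ascending aorta, with no overlap. Casq1 made most of it, at 52.0 and 21.5 CPM, and passed the test by itself (log2 fold change -1.27 ± 0.17, edgeR adjusted p = 0.000699), while 0 of the other 10 tested members passed. Over the 11 tested skeletal muscle genes the median log2 fold change was 0.0056, with 6 positive and 5 negative. The 7 brown adipocyte genes summed to 134 to 245 CPM for wild type against 76.6 to 131 CPM for the mutant, with 0 of 6 tested genes called. Dio2 made most of this sum, with means of 154 and 82.9 CPM, while Ucp1 stood at 2.43 and 0.208 CPM. Adipocyte genes overlapped, at 25.3 to 123 CPM and 5.55 to 61.2 CPM, and so did mesothelial ones, at 274 to 398 and 319 to 538 CPM, and mitochondrial counts, at 2.73% to 3.91% and 2.42% to 3.09%. Of the heart transcription factors 1 of 6 passed, Gata4, at -0.75 ± 0.18 (edgeR adjusted p = 0.0378), and of the conduction genes 1 of 5, the calcium channel Cacna1g, at -1.10 ± 0.27 (edgeR adjusted p = 0.046). Of 18 tested genes on the list of other heart muscle genes 0 passed, with a median of -0.11. The part of these cells in the result was not tested.

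**Figure D4:**
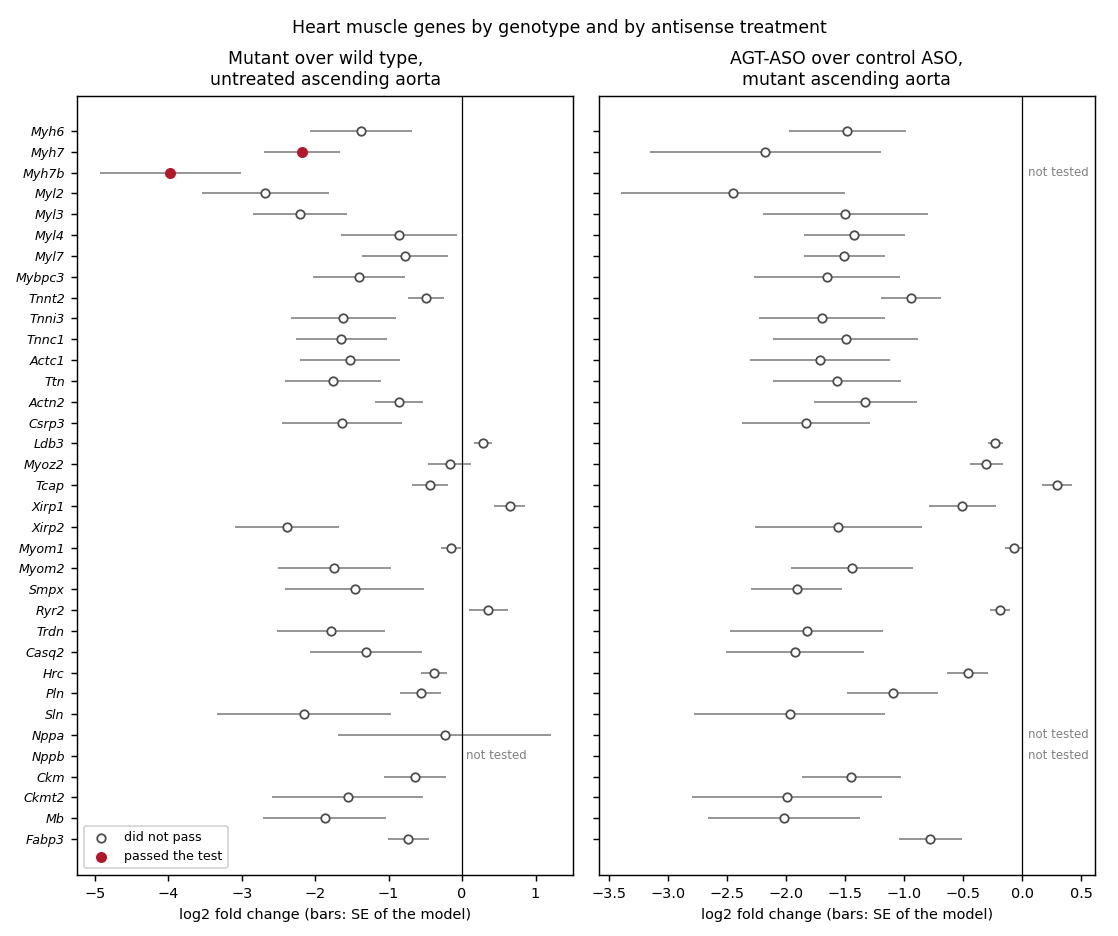
Log2 fold change and its SE for the tested heart muscle genes (34 on the left, 32 on the right), mutant over wild type in untreated ascending aorta (left) and AGT-ASO over control ASO (right), by role from the top. Filled points passed the test, Myh7 and Myh7b on the left and none on the right. In both panels most points lie left of 0.

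In the descending aorta 0 of 34 heart muscle genes passed by genotype, against 1.21% of all genes called in either direction, and 5 had an unadjusted p under 0.05, as did 10.8% of all genes. Casq2, the calcium buffer of the heart's calcium store, was singled out after its values were seen. Its counts were 6, 6, 15 and 9 in wild-type descending 1, 3, 5 and 7 and 84, 64, 63 and 73 in mutant descending 2, 4, 6 and 8. The groups were far apart, at 0.495 ± 0.264 and 3.82 ± 0.613 CPM (SD, n = 4 each), a 7.71-fold difference. With the spread shared by all 16 untreated libraries the log2 fold change was 2.95 ± 1.10 (edgeR adjusted p = 0.306). With only the 2 groups compared in the fit edgeR gave an adjusted p of 0.00119, and with all 4 groups DESeq2 gave 0.0181. In the ascending aorta the same gene showed a wider spread, with 3.25, 56.5, 12.4 and 8.72 CPM for wild type and 3.84, 2.88, 4.69 and 21.3 CPM for the mutant.

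Other heart muscle genes went either way in the mutant descending aorta, and 22 of the 34 fold changes were negative. Myh6 had 6, 39, 7 and 16 counts there and 5, 4, 30 and 9 in wild-type descending libraries, which overlap, and Trdn, which anchors Casq2 beside the release channel, had 2 counts in all against 21. Ryr2 had a log2 fold change of 0.75 ± 0.26 (edgeR adjusted p = 0.258) and Xirp1 of 0.47 ± 0.21 (edgeR adjusted p = 0.424). Pln was the only other member whose mutant descending libraries all lay above the wild-type ones, at 1.89 ± 0.434 and 1.30 ± 0.125 CPM (SD, n = 4 each), a pattern that 3.48% of all tested genes showed. The mutant libraries all lay below the wild-type ones for Tnni3 (means of 1.06 and 2.55 CPM), Tcap (133 and 218 CPM), Fabp3 (21.1 and 29.4 CPM) and Trdn. The share of all genes with this downward pattern is not given here. Casq1, the skeletal form, was lower in the mutant, at -1.44 ± 0.17 (edgeR adjusted p = 0.000179).

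No member passed the test of the interaction of genotype and region, against 0.00639% of all genes, which is 1 gene (edgeR quasi-likelihood F test), and 2 members had an unadjusted p under 0.05 where 5.08% of all genes did. DESeq2 also called 0. Casq2 had the value -4.26 ± 1.34 in it (edgeR adjusted p = 0.705) and Tnnt2 0.05 ± 0.40 (edgeR adjusted p = 1). A difference between the genotypes in the regional change was therefore not shown for any member.

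**Figure D5:**
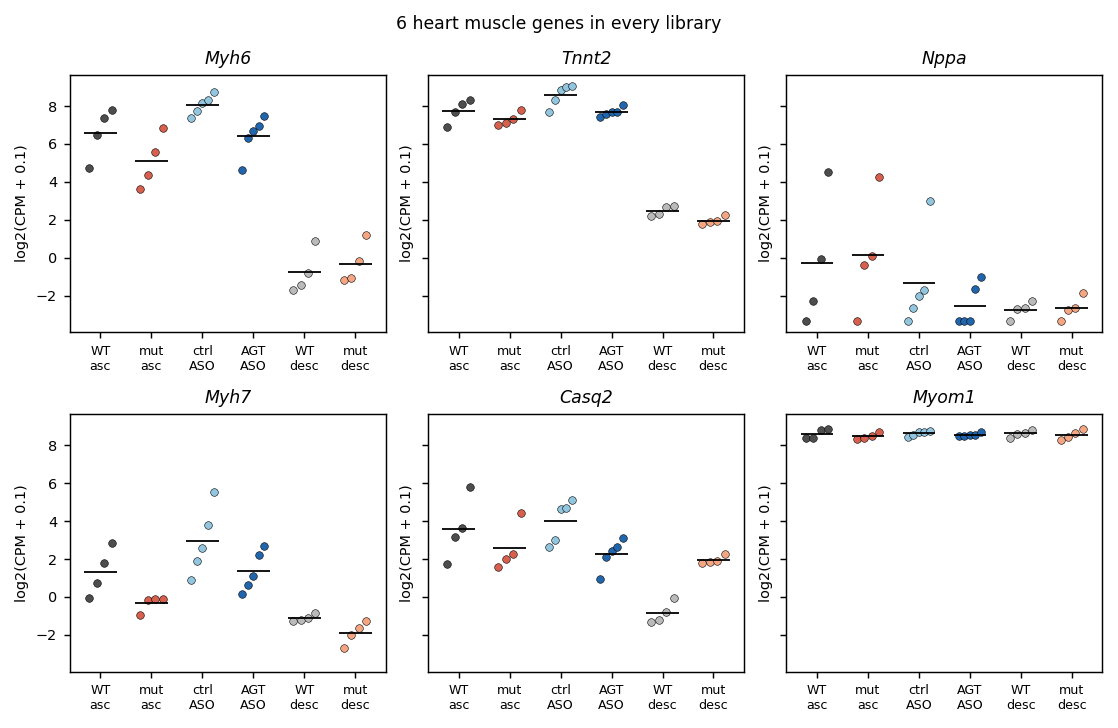
Levels of 6 heart muscle genes as log2(CPM + 0.1) in every library (points) with group means (lines), by group: untreated ascending wild type and mutant, control ASO, AGT-ASO, and descending wild type and mutant. All panels share 1 scale. Casq2 is higher in the 4 mutant than in the 4 wild-type descending libraries, and Nppa is high in 1 library of each of 3 groups.

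In the antisense experiment 0 of 32 tested heart muscle genes passed between AGT-ASO and control ASO (edgeR quasi-likelihood F test), against 0.0668% of 14981 genes. Fold changes were negative for 31 of the 32, with a median of -1.50, and 27 had an unadjusted p under 0.05, as did 12.7% of all genes. Here too the members are correlated across libraries, so these signs and p-values are not independent of each other. DESeq2 called 9 of them, against 1.7% of all 15260 genes to which it gave an adjusted p, all lower with AGT-ASO: Casq2, Ckm, Csrp3, Ldb3, Mb, Myl4, Myl7, Smpx and Tnnt2. Myh7b, Nppa and Nppb were not tested for low counts.

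Smpx, a small protein of striated muscle, came nearest to the threshold. It was at 0.721, 1.52, 1.201, 0.833 and 0.337 CPM in AGT-ASO 14, 15, 18, 19 and 20 and at 2.53, 2.54, 4.82, 2.22 and 5.34 CPM in control ASO 8, 12, 13, 16 and 17, with no overlap. The log2 fold change was -1.91 ± 0.38 (SE, edgeR adjusted p = 0.0746), and the adjusted p was 0.000439 with no filter on low counts and 0.000346 in DESeq2. Ldb3 was the other of 2 members whose AGT-ASO libraries all lay below the control ones, a pattern that 1.14% of all tested genes showed, and its change was small, at -0.23 ± 0.06 (edgeR adjusted p = 0.164). Tnnt2 levels were 207, 264, 209.5, 194 and 172 CPM for AGT-ASO against 206, 315, 513, 528 and 452 CPM for the controls, and control ASO 8 alone lay within the AGT-ASO range. Without control ASO 8, Tnnt2 and Smpx passed (edgeR adjusted p = 0.0149 and 0.0244).

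Myh6 was at -1.48 ± 0.49 (edgeR adjusted p = 0.281), Myl7 at -1.51 ± 0.34 (edgeR adjusted p = 0.154) and Myl2 at -2.45 ± 0.95 (edgeR adjusted p = 0.345). The positive value was that of Tcap, at 0.30 ± 0.13 (edgeR adjusted p = 0.354). By role the medians were -1.72 for energy metabolism, -1.59 for the thin filament, -1.51 for the thick filament, -1.46 for the calcium store and -1.33 for the Z disc and M band. Mitochondrial counts moved with these libraries, at 3.66% to 6.81% with AGT-ASO and 5.34% to 10.8% with control ASO, and all 13 mitochondrial genes had negative fold changes with 0 called. Of 20 other heart muscle genes 0 passed, with a median of -0.41, and 0 of 6 heart transcription factors did. The part of mitochondrial RNA in the result was not tested. Scaling factors taken without the heart muscle and mitochondrial genes also gave 0 calls.

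Between the experiments no test was made, because the libraries were scaled apart. Side by side, the mean of Tnnt2 was 163 CPM in untreated mutant ascending aorta, 209 CPM after AGT-ASO and 403 CPM after the control ASO.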

How the data were processed

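RNA was extracted from mouse aorta with a fibrous-tissue kit and sequenced from NEBNext Ultra libraries, per the labels' protocols. The authors deposited 1 table of raw read counts per gene for each of the 26 libraries. Reads were handled with fastp and STAR 2.6.1d on mm10, per the submitters' processing notes. For the counting tool, its strand setting and its annotation, the entry is: not given in the sources used here. Identifiers were named from GENCODE M21, which named 54495 of 54532.

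Counts were tested with edgeR 4.0.16 (R 4.3.3): TMM factors, genes kept by expression per group, quasi-likelihood F test and Benjamini-Hochberg adjustment over all tested genes at 0.05. The 16 untreated libraries were fitted together (15645 genes) and the 10 antisense libraries apart (14981 genes). The SE given with an edgeR log2 fold change is its absolute value divided by the square root of the F statistic. It is an approximation, because the F test itself reports no SE. CPM used the same factors within each experiment. Count ratios used a pseudocount of 0.5. Intervals are exact, at 95%, and cover only counting error. No molecular identifiers are stated for these reads. Correlations, ratios and their permutation tests were computed with numpy 2.4.6, with ranks and exact intervals from scipy 1.17.1. Alternatives used RLE factors, TMM without heart muscle and mitochondrial genes, no low-count filter, DESeq2 1.42.0, only the groups compared, a replicate block (limma 3.58.1 for genotype) and each library left out.

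Ascending and descending libraries share numbers in the labels. Same-numbered libraries deviated together in all 8 pairs, with correlations of 0.162 to 0.305 against a mean of -0.0331 for other pairs, so the numbers were taken to pair them. The main tests, of region and of the interaction too, did not use this pairing, which entered only in the replicate block alternatives. No 2 replicates agreed within sampling noise. Given per library were Myh6, the chamber-typed genes, Pln and members called by genotype or AGT-ASO; named besides were the 5 highest and 5 lowest members per kilobase, those at 1 CPM or more in wild-type descending aorta, and the 10 non-members most like Myh6, of which 1 is not reported here. Other genes (Casq2, Smpx, Casq1, Gata4, Cacna1g among them) were named after their values were seen. Members and lists were chosen with earlier results of these data known. The script was tested on simulated counts.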

Additional observations from a re-analysis of the deposited data

Results flagged for a closer look

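Of 98 groups of values searched, 15 held a library set apart from the rest of its group by a gap beyond Dixon's 95% critical value. Chance gives this in about 1 in 20 groups only when values are independent and normally distributed. Most were searched as CPM without logs, and the genes vary together, so the 15 cannot be compared with that share. Wild-type ascending 3 was the high library for 4 atrial genes, with Myl7 at 80.4 CPM, Myl4 at 133 CPM, Nppa at 23.0 CPM and Sln at 51.8 CPM. Mutant ascending 8 was the high library for the same 4 genes, with Myl7 at 29.6 CPM, Myl4 at 56.2 CPM, Nppa at 18.9 CPM and Sln at 9.51 CPM. Both libraries were also the highest of their groups for Myh6, at 223 and 114 CPM. Wild-type ascending 5 had the low log2 ratio of Myl7 to Myl2, at -1.65.

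Mutant ascending 2 was lowest of its group for Myh7, at 0.427 CPM, and highest for Myh7b, at 0.128 CPM, where the other 3 libraries had 0 counts. Control ASO 17 was highest for Nppa, at 7.91 CPM, and control ASO 13 for Myh7, at 45.7 CPM. AGT-ASO 15 was highest for Myh7b, at 0.733 CPM. Mutant descending 4 was highest for Myl3, at 0.0567 CPM, which is 1 count.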

How the results depend on the processing

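The 2 heart muscle genes called by genotype in the ascending aorta became 1 with only the 2 groups compared, 1 with the replicate block (random, in voom) and 1 in voom without the block, which was chosen after seeing the data. Leaving out 1 library each gave 0 to 3. In the descending aorta the count of 0 became 1 with DESeq2 and 1 with only the 2 groups compared. The mutant regional count of 15 ran from 9 to 16 with 1 library left out, and was 20 with the replicate block, 22 with DESeq2 and 10 with no low-count filter. In the antisense comparison the count of 0 became 1 with no low-count filter and 9 with DESeq2, and ran from 0 to 2 with 1 library left out. In mutant mice the block moved the regional counts of atrial genes from 1 to 3, of ventricular genes from 1 to 3 and of energy metabolism from 1 to 2, and of natriuretic peptides from 0 to 1 in both genotypes. It moved no other total of heart muscle genes called by over 1.5 times, and neither scaling alternative changed such a total. Of the 23 wild-type regional calls 18 were kept in all 14 alternatives, and of the 15 mutant ones 9.

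With 1 library left out, the Myh7 to Myh6 difference ran from -0.82 to 0.26 between genotypes and from -0.37 to 0.55 between antisense groups, the Myl4 to Myl3 one from -0.54 to 0.58 and the Nppa to Myh6 one from -0.70 to 1.22 between antisense groups. With a pseudocount of 1 count the last was 0.27. The cause of these changes was not tested. Low counts limit Nppb, Myh7b and most members in the descending aorta, where 20 of the 35 lay under 1 CPM.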
